A study of Mus musculus with 9 samples.

Results

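The conjugation enzymes of phase II drug metabolism were examined in mouse liver: the soluble glutathione transferases (GST), the microsomal glutathione transferases (MGST), the UDP-glucuronosyltransferases (UGT) and the sulfotransferases (SULT). Members were taken by gene symbol alone, as the rows named Gsta, Gstk, Gstm, Gsto, Gstp, Gstt or Gstz with a number, Mgst with a number, the Ugt1a, Ugt2 and Ugt3 names, and the Sult names. This gave 62 of the 23444 rows listed: 21 soluble GST, 3 MGST, 20 UGT and 18 SULT genes. Liver RNA was sequenced from 3 groups of C57Bl6 mice with 3 libraries each: mice of 20 to 22 months on chow with PD-0332991 for 2 weeks (treated), mice of 20 to 22 months without the drug (aged), and mice of 2 months without the drug (young). PD-0332991 (palbociclib) is a CDK4/6 inhibitor that stops cells from entering S phase, and the labels give its amount as 450 with the unit written mg/k. The drug was given to aged mice only, so treated livers can be set against aged livers for the drug, and against young livers for drug and age together. Neither the sex of the mice nor whether each library came from its own mouse is stated, so the p-values below rest on library-to-library spread, which may be technical.

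Phase II enzymes join a small polar group to a drug, hormone or lipid product so that it can leave the cell in bile or urine. GST enzymes add glutathione to electrophiles, and SULT enzymes add sulfate from the donor PAPS. The UGT1A and UGT2 enzymes add glucuronic acid from UDP-glucuronate to bilirubin, bile acids, steroids and phenols. The UGT counts and sums below also hold Ugt3a1 and Ugt3a2, to which this does not extend. The hepatocyte holds most of this capacity, and several of the genes respond to the receptors CAR and PXR and to the stress factor NRF2. Many members arose by local duplication and are near copies of their neighbours, which bears on how reads are shared out among them.

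The deposited values are TPM, transcript abundances corrected for transcript length and scaled to a common total, and the depth behind them is unknown. The listed rows made up 53.1% to 57.7% of the common total in each library, and a 0 is read only as listed at 0. Of 18 hepatocyte markers 17 were tested and summed to between 53407 and 59493 TPM in all libraries, while Alb, the albumin gene, was listed at 0 in every one. Xist reached at most 0.0125 TPM and the Y-linked Ddx3y lay between 5.83 and 8.48 TPM over the 9 libraries. Aged replicate 1 stood apart from the other aged libraries in a list of 28 acute phase genes, with a summed level of 49516 TPM against 24062 and 17535 TPM. In bulk liver, fewer cells of a type and less RNA per cell cannot be told apart.

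Several conjugation genes were among the most abundant transcripts of these livers. Mgst1 ranked 16th of 23440 genes by mean TPM over all libraries (4079 TPM), Gstm1 30th (1972 TPM), Gstp1 45th (1551 TPM) and Gsta3 67th (1083 TPM). Ugt2b5, at 500.4 TPM and rank 171, led the UGT genes, and Sult1a1, at 188 TPM and rank 448, led the SULT genes. Of the 62 members, 15 averaged 100 TPM or more and 21 averaged 10 to 100 TPM. A gene was tested where it reached 1 TPM in at least 3 libraries, which 42 members did: 19 soluble GST, 2 MGST, 15 UGT and 6 SULT. The other 20 stayed at or below 0.781 TPM in every library. Of these, 7 were listed at 0 throughout, all of them SULT genes: Sult1c1, Sult2a1, Sult2a3, Sult2a4, Sult2a5, Sult2a6 and Sult3a1. The Sult2a enzymes sulfate hydroxysteroids and bile acids, and in mouse liver several of them and Sult3a1 are known as female-predominant.

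**Figure D1:**
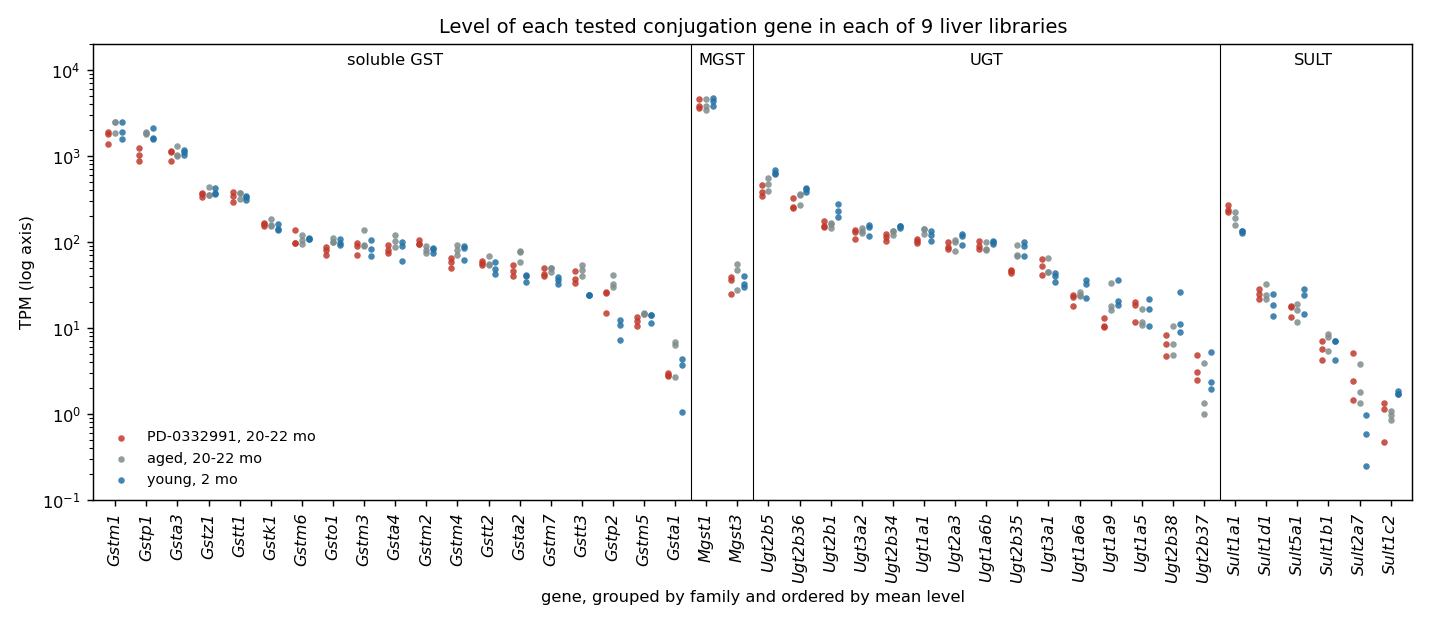
TPM on a log axis for each of the 42 tested members, grouped by family and ordered by mean level; each point is 1 library, with treated, aged and young livers from left to right at each gene. Mean levels span from 4079 TPM for Mgst1 to 1.23 TPM for Sult1c2, and at most genes the 3 groups lie close together.

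Across the whole table, the fraction of members that changed was set beside the same fraction of all 10161 genes tested. A gene was called where limma's moderated test on log2(TPM + 0.5) gave a Benjamini-Hochberg adjusted p under 0.05, and fold changes below are on that scale. In aged against young livers 3 members were called, all higher, against 1.1% of all genes (0.65% higher and 0.453% lower). In treated against aged livers 2 members were called, both lower, against 1.45% of all genes (0.61% higher and 0.837% lower). In treated against young livers 9 members were called, 3 higher and 6 lower, against 6.88% of all genes (2.59% higher and 4.29% lower). As shares of the 42 tested members these were 7.14%, 4.76% and 21.4%. At an unadjusted p under 0.05 the members' counts were 12, 12 and 18 of 42, while the shares of all genes were 15%, 18.2% and 24.8%. The comparisons share libraries with each other, so they are not independent.

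These counts moved with single libraries. In aged against young livers the count was 0 without young replicate 1 and 6 without aged replicate 3. For treated against aged livers it was 0 without aged replicate 2, treated replicate 1 or treated replicate 2, and 1 without young replicate 1 or treated replicate 3. For treated against young livers it was 5 without young replicate 1, 3 without young replicate 3 and 4 without treated replicate 2. Scaling moved the direction of calls over all genes: 42.2% of those called in treated against aged livers were higher, but 64% with median-of-ratios scaling and 61.1% with quantile normalization. For treated against young livers the shares were 37.6%, 56.8% and 49.8%, and with median-of-ratios scaling 4 members were called higher and 3 lower.

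In each comparison more members had 2 groups that did not overlap than were called. In aged against young livers 8 members were higher and 5 lower with no overlap, 13 of the 42 tested, against 18.4% of all genes (8.82% higher and 9.57% lower). In treated against aged livers 1 was higher and 9 were lower, 10 of 42, against 22.4% of all genes (5.72% higher and 16.7% lower). In treated against young livers 6 were higher and 10 lower, 16 of 42, against 33.9% of all genes (9.55% higher and 24.4% lower). The members' median log2 fold change was 0.05 in aged against young livers, -0.13 in treated against aged livers and -0.10 in treated against young livers, where all genes had medians of -0.01, -0.09 and -0.10.

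**Figure D2:**
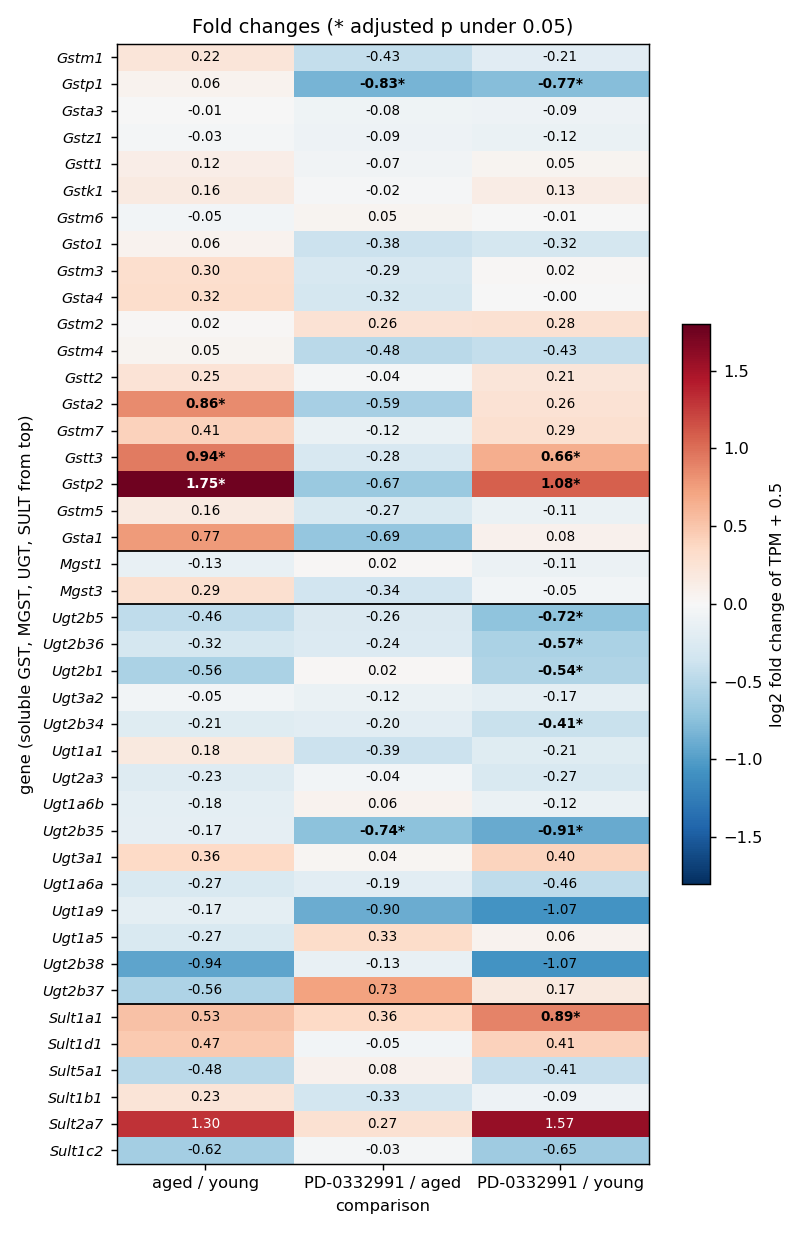
Log2 fold changes of TPM + 0.5 for the 42 tested members in the 3 comparisons, by family from top to bottom (soluble GST, MGST, UGT, SULT); red is higher and blue lower in the first-named group, and an asterisk marks an adjusted p under 0.05. The 3 asterisks in the first column are all in soluble GST genes, and 5 of the 9 in the last are in Ugt2b genes.

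The soluble GST genes carried all 3 calls of aged against young livers, where 1.1% of all genes were called, and Gstp1 fell with the drug. Of 19 tested, 16 were above 0 in aged against young livers, with a median of 0.16, against 4867 of all 10161 genes. In treated against aged livers 17 of the 19 were below 0, with a median of -0.28, against 6776 of all genes. With median-of-ratios scaling 13 of 19 were below 0 there and the median was -0.20, against 5278 of 10141 genes. In treated against young livers 10 were above 0 and the median was 0.02, against 3562 of 10161 genes. Gstp2 and Gstt3 were called higher there and Gstp1 was called lower.

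Gstp1 encodes the pi class GST, which acts on acrolein and other reactive aldehydes and lies on the minus strand of chromosome 19 (4035407 to 4037985, GRCm38) beside its near copy Gstp2 (4040285 to 4046023). Gstp1 had 1026, 876 and 1219 TPM in treated livers, 1790, 1886 and 1835 TPM in aged livers, and 1618, 1582 and 2130 TPM in young livers. Every treated library lay below every library of the other groups, while aged and young livers overlapped. Gstp1 fell to 0.561 of the aged level (log2 fold change -0.83 ± 0.14 SE, adjusted p = 0.0193), and was 0.586 of the young level (-0.77 ± 0.14, adjusted p = 0.0103). In aged against young livers the log2 fold change was 0.06 (95% interval -0.24 to 0.37). The drug call was lost without aged replicate 2 (adjusted p = 0.0585), treated replicate 1 (0.0517) or treated replicate 2 (0.0817) and with no filter on low genes (0.0564), and the call against young livers was lost without treated replicate 2 (0.0520). Gstp1 also made up less of its family: 18.1%, 19.2% and 20.9% of the summed soluble GST level in treated livers, 28.7%, 25.4% and 25.5% in aged livers, and 24.0%, 27.6% and 31.5% in young livers (exact two-sided permutation p = 0.1 for treated against either, the smallest that 3 against 3 libraries allow).

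Gstp2 was 26.3, 14.8 and 25.1 TPM in treated livers, 41.6, 32.6 and 30.0 TPM in aged livers, and 7.19, 10.9 and 12.2 TPM in young livers. The aged libraries were the highest, the young the lowest, and no 2 groups overlapped. It rose 3.36-fold in aged against young livers (log2 fold change 1.75 ± 0.25, adjusted p = 0.0133) and was 2.11-fold higher in treated than in young livers (1.08 ± 0.25, adjusted p = 0.0318). Between treated and aged livers its log2 fold change was -0.67 ± 0.25 (adjusted p = 0.195). The call in aged against young livers was lost without young replicate 1 (adjusted p = 0.0514); that in treated against young livers was lost without any single young library or without treated replicate 1 or 3 (adjusted p up to 0.104) and with no filter (0.0559).

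How far these values are Gstp2's own is limited by sequence. The coding sequences of Gstp1 and Gstp2 have 630 bases each and differ at 12. In the GENCODE M21 annotation 67.5% of the 31-base words of the Gstp1 transcript also occur in Gstp2. Of the words of Gstp2 78.1% occur in other genes and 69.6% in Gstp1. The first 150 coding bases are shown, since reads from coding sequence can be told apart only at such positions; capitals mark the 6 bases that differ there.
Gstp1: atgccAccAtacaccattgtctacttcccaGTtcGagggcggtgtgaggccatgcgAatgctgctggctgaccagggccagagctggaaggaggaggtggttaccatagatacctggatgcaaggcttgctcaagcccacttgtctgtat
Gstp2: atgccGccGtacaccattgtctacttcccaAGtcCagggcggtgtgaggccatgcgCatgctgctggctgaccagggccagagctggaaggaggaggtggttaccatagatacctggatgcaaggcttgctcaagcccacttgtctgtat
Gstp2 stood at 1.69% to 2.56% of the Gstp1 level in treated livers, 1.63% to 2.32% in aged livers and 0.444% to 0.689% in young livers. The sum of the 2 genes, which depends less on how reads were split between them, changed by 0.08 on the log2 scale in aged against young livers (adjusted p = 0.839). In treated against aged livers the sum fell by 0.83 (adjusted p = 0.0197), and in treated against young livers by 0.75 (adjusted p = 0.0115). Since Gstp1 makes up nearly all of the sum, these values say little about Gstp2.

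Gsta2, an alpha class GST that acts on lipid hydroperoxides, had 39.7, 46.1 and 54.1 TPM in treated livers, 57.9, 75.3 and 78.6 TPM in aged livers, and 41.0, 34.3 and 40.4 TPM in young livers. The aged libraries lay above both other groups, which overlapped each other. It rose 1.81-fold in aged against young livers (log2 fold change 0.86 ± 0.14, adjusted p = 0.0199). In treated against aged livers the log2 fold change was -0.59 ± 0.14 (adjusted p = 0.0662), and without aged replicate 1 it was -0.73 with an adjusted p of 0.0292. The call in aged against young livers was lost without any single young library or aged replicate 2 (adjusted p 0.0573 to 0.0902) and with no filter (0.0563). Of its 31-base words 75.6% occur in other genes and 56.4% in Gm10639, which was at most 0.187 TPM.

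Gstt3 belongs to the theta class and sits on chromosome 10 (75774115 to 75781414, minus strand) beside Gstt1. It had 45.3, 33.3 and 36.7 TPM in treated livers, 47.0, 53.2 and 40.2 TPM in aged livers, and 24.2, 24.0 and 23.8 TPM in young livers. Treated and aged libraries overlapped and lay above the young libraries, whose coefficient of variation was 0.575%. Gstt3 rose 1.92-fold in aged against young livers (log2 fold change 0.94 ± 0.13, adjusted p = 0.00798) and was 1.58-fold higher in treated than in young livers (0.66 ± 0.13, adjusted p = 0.0155). Treated against aged livers gave -0.28 ± 0.13 (adjusted p = 0.277). Leaving out young replicate 1 ended both calls (adjusted p = 0.0514 and 0.0586), as leaving out young replicate 3 ended the call in treated against young livers (0.0555). Of the 31-base words of Gstt3 27.0% occur in other genes and 26.8% in Gm20441, which has no row among those listed.

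**Figure D3:**
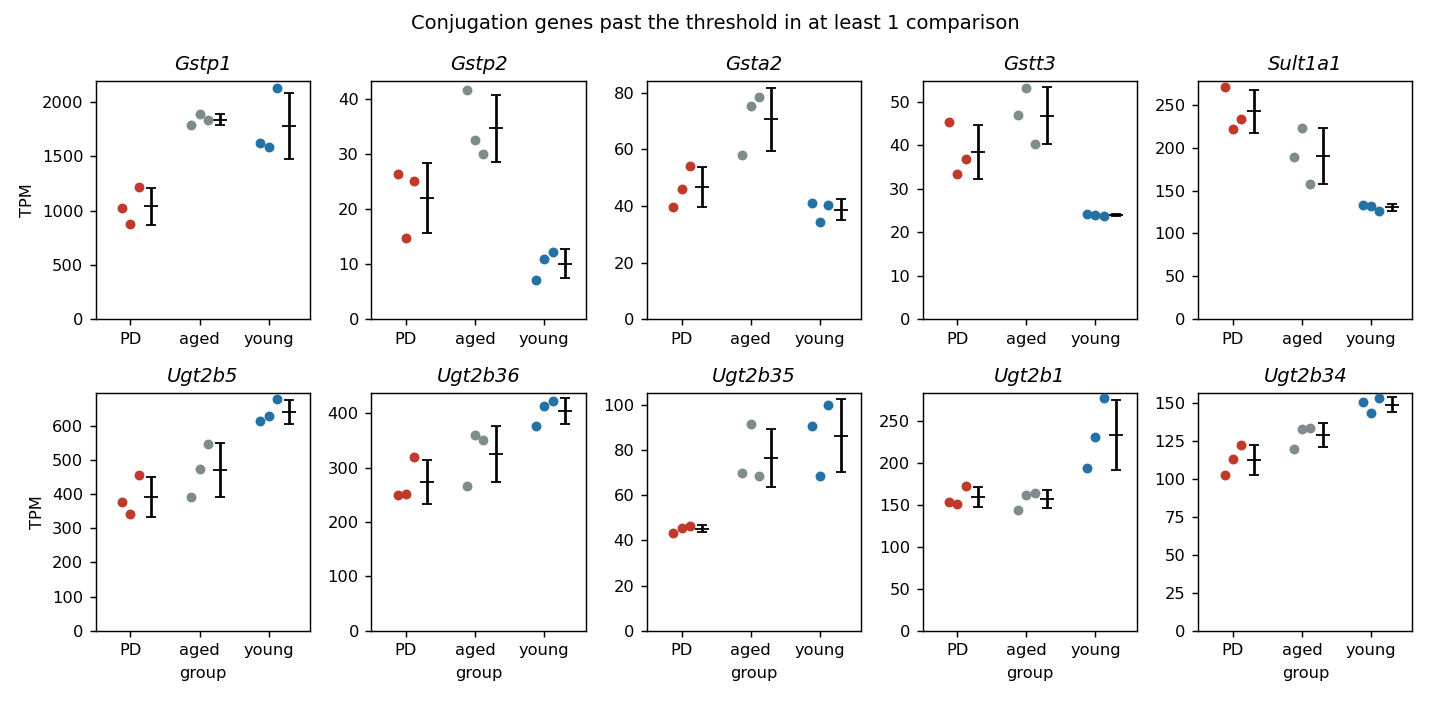
TPM per library of the 10 members called in at least 1 comparison, with treated (PD), aged and young livers from left to right in each panel; bars are the mean ± SD of 3 libraries and each axis starts at 0. Gstp1 and Ugt2b35 are lowest in all 3 treated libraries, while Gstp2, Gsta2 and Gstt3 are lowest on average in young livers.

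The other leading soluble GST genes passed no test. Gsta3 had 1137, 879 and 1112 TPM in treated livers, 987, 1290 and 1033 TPM in aged livers, and 1120, 1019 and 1171 TPM in young livers, and its log2 fold changes were all within 0.09 of 0. Gsta4, which removes the lipid peroxidation product 4-hydroxynonenal, had 91.7, 74.0 and 80.8 TPM in treated livers, 86.5, 121.5 and 102.1 TPM in aged livers, and 90.3, 60.4 and 101 TPM in young livers (adjusted p of at least 0.387 in each comparison). Of the 4 Gsta genes, Gsta2 alone was called, and it held far less of the class than Gsta3. Gsta1 averaged 3.72 TPM over all libraries, and 87.8% of its 31-base words occur in Gm3776, which is not a member. Gm3776 averaged 1.73 ± 0.76, 4.38 ± 1.15 and 0.749 ± 0.158 TPM in treated, aged and young livers. By limma it was called higher in aged against young livers (1.95, adjusted p = 0.00615) and lower in treated against aged livers (-1.15, adjusted p = 0.0435).

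Gstm1, the main mu class enzyme, had 1800, 1373 and 1886 TPM in treated livers, 1841, 2475 and 2479 TPM in aged livers, and 2444, 1561 and 1885 TPM in young livers. Treated and aged libraries overlapped, and the log2 fold change was -0.43 ± 0.18 (adjusted p = 0.255). Of the 31-base words of Gstm1 46.6% occur in other genes and 39.2% in Gstm2-ps1, which has no row among those listed. Gstm6 had 136, 96.7 and 96.9 TPM in treated livers, 93.3, 105 and 119 TPM in aged livers, and 110, 108 and 109 TPM in young livers, with no adjusted p under 0.887. Among the other mu genes, Gstm2 averaged 97.3 ± 6.56 TPM in treated livers, 81.2 ± 7.01 TPM in aged livers and 80.2 ± 5.92 TPM in young livers (SD, n = 3), against the direction of most of its neighbours. Its treated libraries lay above all others, with adjusted p of 0.209 against aged livers and 0.120 against young livers, and with median-of-ratios scaling it was called higher against young livers (0.37, adjusted p = 0.0455). Gstm4 averaged 57.9 ± 7.29 TPM in treated livers, 81.2 ± 11.4 TPM in aged livers and 78.9 ± 15.7 TPM in young livers (adjusted p = 0.152 for treated against aged livers). Gstm7 averaged 44.3 ± 5.04, 48.1 ± 3.29 and 36.0 ± 3.13 TPM in treated, aged and young livers, and the young libraries lay below all others (adjusted p = 0.108 for aged against young livers).

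In the theta class, Gstt1 had 380, 289 and 344 TPM in treated livers, 318, 371 and 370.3 TPM in aged livers, and 339, 328 and 309 TPM in young livers. Gstt2 had 56.8, 54.2 and 60.3 TPM in treated livers, 53.1, 54.7 and 68.8 TPM in aged livers, and 48.1, 58.5 and 42.2 TPM in young livers. The groups overlapped for both genes in every comparison, so that of the 3 tested theta genes Gstt3 alone was called. Gstz1, an isomerase of tyrosine breakdown, had 358, 328 and 373 TPM in treated livers, 348, 354 and 433 TPM in aged livers, and 362, 424 and 368 TPM in young livers. Gstk1, the kappa class enzyme of mitochondria and peroxisomes, had 168, 152 and 162 TPM in treated livers, 156, 152 and 182 TPM in aged livers, and 139, 161 and 139 TPM in young livers. Both overlapped between all groups. Gsto1, an omega class enzyme with reductase activity, averaged 79.4 ± 7.70 TPM in treated livers, 103 ± 5.99 TPM in aged livers and 99.4 ± 8.60 TPM in young livers. Its treated libraries lay below all others, with an adjusted p of 0.0969 against aged livers and 0.0851 against young livers (0.0466 with array weights).

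The microsomal GST genes encode membrane enzymes unrelated in sequence to the soluble ones. Mgst1, which protects the endoplasmic reticulum and outer mitochondrial membranes from lipid peroxidation, had 3774, 3611 and 4579 TPM in treated livers, 3850, 3386 and 4617 TPM in aged livers, and 3843, 4664 and 4386 TPM in young livers. It supplied 98.6% to 99.3% of the family's summed level in each library. Its groups overlapped, and the drug log2 fold change was 0.02 (95% interval -0.28 to 0.31), which bounds a change in either direction to less than the one seen at Gstp1. Mgst3 had 36.0, 24.7 and 39.3 TPM in treated livers, 27.6, 46.8 and 55.9 TPM in aged livers, and 40.5, 32.0 and 30.0 TPM in young livers. None of the 2 tested MGST genes was called by limma in any comparison, and 0 had an unadjusted p under 0.05.

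In treated against young livers 5 of the 15 tested UGT genes were called lower, and all 5 are Ugt2b genes. Of all genes 6.88% were called there, 4.29% of them lower as a share of all genes. With median-of-ratios scaling 2 of the 5 UGT genes passed. Of the 15, 12 were below 0 in treated against young livers with a median of -0.41, 13 in aged against young livers with a median of -0.23, and 10 in treated against aged livers with a median of -0.13. Of all 10161 genes tested, 6599, 5294 and 6776 were below 0 in the same order of comparisons. In treated against aged livers the UGT share was thus like that of all genes. In aged against young livers limma called 0 of them, and 4 had an unadjusted p under 0.05. In treated against aged livers 1 was called, Ugt2b35, where 1.45% of all genes were called. UGT2B enzymes conjugate steroid hormones, bile acids and many drugs.

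Ugt2b35 had 43.4, 45.6 and 46.5 TPM in treated livers, 69.7, 91.4 and 68.6 TPM in aged livers, and 90.6, 68.6 and 99.9 TPM in young livers. The treated libraries lay below all others, and aged and young livers overlapped. Ugt2b35 fell to 0.598 of the aged level (log2 fold change -0.74 ± 0.15, adjusted p = 0.0342) and was 0.532 of the young level (-0.91 ± 0.15, adjusted p = 0.00713). The call against young livers was kept in all 20 other settings. The call against aged livers was lost without young replicate 1, aged replicate 2 or any single treated library (adjusted p 0.0598 to 0.116), and under both other scalings, no filter and the 2 groups alone (0.0512 to 0.0834). Only 4.37% of its 31-base words occur in other genes. Ugt2b35 held 3.05%, 3.18% and 2.82% of the summed UGT level in treated livers, 4.63%, 5.07% and 3.65% in aged livers, and 4.54%, 3.35% and 4.35% in young livers.

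The other called Ugt2b genes had their highest levels in young livers. Ugt2b5 had 376, 341 and 456 TPM in treated livers, 390.2, 473 and 546 TPM in aged livers, and 614, 628 and 679 TPM in young livers. Ugt2b36 had 249.5, 252 and 320.2 TPM in treated livers, 266, 359 and 351 TPM in aged livers, and 376, 412 and 423 TPM in young livers. For both, the young libraries lay above all others, while treated and aged libraries overlapped. Ugt2b5 was 0.606 of the young level in treated livers (log2 fold change -0.72 ± 0.14, adjusted p = 0.0128), and its aged against young value was -0.46 ± 0.14 (adjusted p = 0.147, but 0.0332 with array weights and 0.0241 without aged replicate 3). Ugt2b36 was 0.675 of the young level in treated livers (-0.57 ± 0.14, adjusted p = 0.0317), and its aged against young value was -0.32 ± 0.14 (adjusted p = 0.294). Of the 31-base words of Ugt2b5 56.4% occur elsewhere, 44.9% in Ugt2b38, with which its coding sequence is 97.0% identical, and the sum of these 2 genes gave -0.73 in treated against young livers (adjusted p = 0.0117). Ugt2b5 lost its call without young replicate 3 or treated replicate 2 (adjusted p 0.0556 and 0.0632), and Ugt2b36 without any single young library or without treated replicate 1 or 2 (up to 0.122), with no filter (0.0628) and with median-of-ratios scaling (0.0528).

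Ugt2b1 had 154, 151 and 173 TPM in treated livers, 144, 161 and 164 TPM in aged livers, and 194, 230.3 and 277 TPM in young livers. Ugt2b34 had 102, 113 and 122 TPM in treated livers, 120, 133 and 134 TPM in aged livers, and 151, 143 and 153 TPM in young livers. Young libraries were again the highest without overlap for both genes, but at Ugt2b1 treated and aged livers had like levels, with a log2 fold change of 0.02 (95% interval -0.26 to 0.30). Ugt2b1 was 0.688 of the young level in treated livers (-0.54 ± 0.13, adjusted p = 0.0306), and its log2 fold change in aged against young livers was -0.56 ± 0.13 (adjusted p = 0.0636). That last value passed with quantile normalization (adjusted p = 0.0423), with array weights (0.0319) and without aged replicate 3 (0.0256). Ugt2b34 was 0.754 of the young level in treated livers (-0.41 ± 0.10, adjusted p = 0.0301). With median-of-ratios scaling the calls of Ugt2b1 (0.0520) and Ugt2b34 (0.0657) in treated against young livers were lost, and that of Ugt2b1 also with no filter on low genes (0.0584). Leaving out young replicate 2, young replicate 3 or any single treated library ended the call of Ugt2b1 (up to 0.114), and leaving out any single young library or treated replicate 1 or 2 that of Ugt2b34 (up to 0.1004).

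All Ugt2 genes lie in 1 block of chromosome 5 that also holds Sult1b1, Sult1d1 and Sult1e1 (86889767 to 87591594, GRCm38, GENCODE M21). The 5 called genes, Ugt2b34, Ugt2b1, Ugt2b35, Ugt2b36 and Ugt2b5, are the first 5 in order along the chromosome. Next came Ugt2b37, at 3.44 ± 1.197 TPM in treated livers, 2.09 ± 1.61 TPM in aged livers and 3.16 ± 1.804 TPM in young livers, and Ugt2a3, at 90.2 ± 8.94, 93.4 ± 14.3 and 110 ± 16.2 TPM in the same order of groups. Ugt2b38 averaged 6.46 ± 1.83 TPM in treated livers, 7.27 ± 2.93 TPM in aged livers and 15.4 ± 9.30 TPM in young livers (adjusted p = 0.156 for treated against young livers). The SULT genes at the far end did not share the lower values: Sult1d1 gave 0.41 and Sult1b1 -0.09 in treated against young livers, neither past the threshold. The adjacency of the called genes was seen after their values were known and was not tested.

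**Figure D4:**
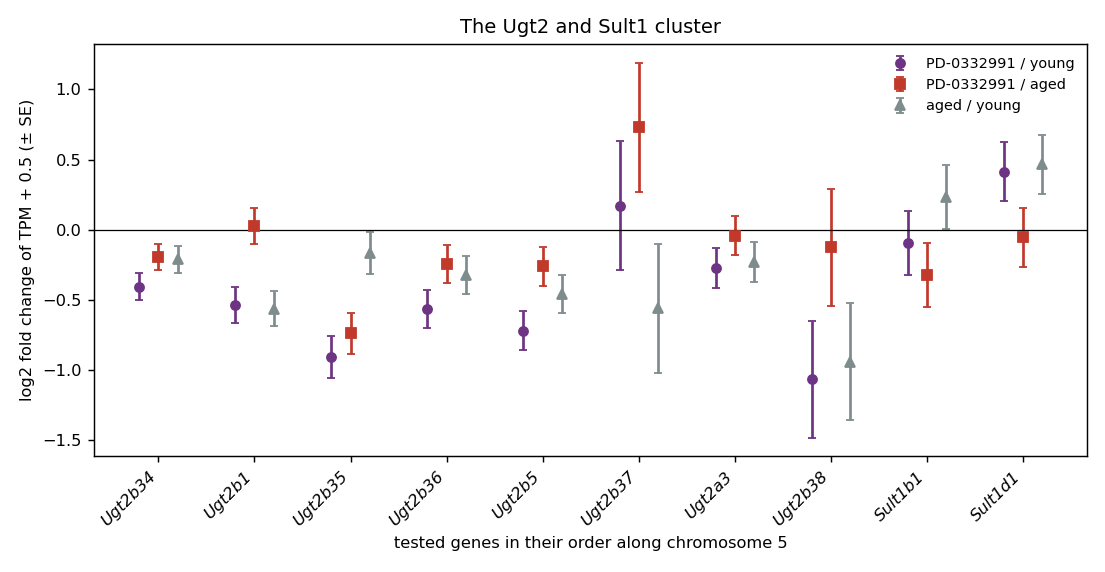
Log2 fold change (± SE) of the 10 tested genes of the Ugt2 and Sult1 block in their order along chromosome 5, in treated against young, treated against aged and aged against young livers. The first 5 genes lie between -0.41 and -0.91 in treated against young livers, and Ugt2b35 is the only one of them whose treated against aged value lies below -0.5.

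The 250 bases before the RefSeq start of 3 of these genes (GRCm38.p6) are shown because the genes were lower together in treated than in young livers. Capitals mark matches to the C/EBP motif TTGCNNAA on either strand, searched after the values were known.
Ugt2b5, chr5:87140341-87140590, minus strand: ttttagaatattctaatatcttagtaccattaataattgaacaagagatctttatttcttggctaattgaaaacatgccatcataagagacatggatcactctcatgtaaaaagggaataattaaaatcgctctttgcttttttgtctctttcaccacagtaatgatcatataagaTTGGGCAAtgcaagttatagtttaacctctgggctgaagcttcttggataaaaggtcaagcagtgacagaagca
Ugt2b36, chr5:87092556-87092805, minus strand: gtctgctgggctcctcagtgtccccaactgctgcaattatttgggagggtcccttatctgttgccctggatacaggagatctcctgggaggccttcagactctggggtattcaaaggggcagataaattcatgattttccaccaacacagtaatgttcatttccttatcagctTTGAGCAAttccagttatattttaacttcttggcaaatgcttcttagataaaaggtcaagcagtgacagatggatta
Ugt2b35, chr5:87000610-87000859, plus strand: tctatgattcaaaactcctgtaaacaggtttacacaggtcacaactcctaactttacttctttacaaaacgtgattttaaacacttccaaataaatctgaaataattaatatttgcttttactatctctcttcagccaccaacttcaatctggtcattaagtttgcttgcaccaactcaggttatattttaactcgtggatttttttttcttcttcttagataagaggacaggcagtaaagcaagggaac
Ugt2b5 and Ugt2b36 each hold 1 match, 74 and 77 bases before the start, and the windows of Ugt2b35 and of the called Ugt2b1 and Ugt2b34 hold none. Ugt2b5 and Ugt2b36 also share a run of 24 bases nearer the start, gataaaaggtcaagcagtgacaga, whereas the longest run Ugt2b35 shares with Ugt2b36 is 14 bases. Such runs are not limited to called genes: Ugt2b37, which was not called, shares the same 24 bases with Ugt2b36 and a run of 68 bases with Ugt2b5, and Ugt2b38, also not called, shares 62 bases with Ugt2b5.
Windows of the 250 bases before the start were searched, 65 of them for 54 of the 62 members. The C/EBP motif stood in 9 of these 65 windows (13.8%) and in 9.56% of all 32851 windows. The HNF1 motif GTTAAT stood in 20.0% of member windows and 6.43% of all, and the antioxidant response element core TGACNNNGC in 6.15% and 10.2%. Among called members the HNF1 motif was found at Sult1a1 alone. It was also found at the untested Sult2a3, Sult2a4, Sult2a5, Sult2a6 and Ugt1a10, and windows of near copies are not independent. A match describes letters only.

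The Ugt1a genes are alternative first exons joined to common downstream exons on chromosome 1, so that 58.5% of the words of Ugt1a1 and 83.2% of those of Ugt1a6b occur in other genes. Ugt1a1, the enzyme of bilirubin conjugation, had 97.9, 107 and 101 TPM in treated livers, 122, 141 and 140.0 TPM in aged livers, and 135, 101 and 122 TPM in young livers. Treated libraries lay below all aged libraries, with a log2 fold change of -0.39 ± 0.12 (adjusted p = 0.116). Ugt1a6b, which acts on small planar phenols, had 102, 88.8 and 82.9 TPM in treated livers, 81.1, 83.1 and 99.0 TPM in aged livers, and 98.7, 94.7 and 103 TPM in young livers. Its log2 fold changes lay between -0.18 and 0.06. Ugt1a9 averaged 11.2 ± 1.60 TPM in treated livers, 22.4 ± 9.28 TPM in aged livers and 25.1 ± 9.73 TPM in young livers. Its treated libraries lay below all others (adjusted p = 0.176 against aged livers and 0.0708 against young livers), and it passed against young livers in 4 other settings, among them a fit of those 2 groups alone (0.0259). Ugt3a1 averaged 52.3 ± 11.2 TPM in treated livers, 51.0 ± 11.6 TPM in aged livers and 39.1 ± 4.61 TPM in young livers, while Ugt3a2 averaged 125 ± 15.2, 136 ± 8.88 and 141 ± 20.98 TPM. Neither was called in any comparison.

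Sult1a1, which sulfates simple phenols, was the one SULT gene called. It had 271, 223 and 234 TPM in treated livers, 189, 223 and 158 TPM in aged livers, and 134, 132 and 126 TPM in young livers. Young libraries lay below all others, and treated and aged libraries overlapped at replicate 2 of each. Sult1a1 rose 1.85-fold in treated against young livers (log2 fold change 0.89 ± 0.13, adjusted p = 0.00419), a call kept in all 20 other settings. The 2 steps within this were 0.53 ± 0.13 in aged against young livers (adjusted p = 0.0749) and 0.36 ± 0.13 in treated against aged livers (adjusted p = 0.170). The aged against young value passed with array weights (adjusted p = 0.0166) and without aged replicate 3 (0.00677).

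The 6 tested SULT genes had median log2 fold changes of 0.35 in aged against young, 0.02 in treated against aged and 0.16 in treated against young livers. In the first 2 comparisons limma called 0 of them, and 4 and 1 had an unadjusted p under 0.05. Sult1d1, which acts on catecholamines and other phenols, had 21.8, 24.8 and 28.5 TPM in treated livers, 24.2, 32.6 and 21.9 TPM in aged livers, and 13.8, 24.9 and 18.6 TPM in young livers. Its groups overlapped in every comparison. Sult2a7 had 1.44, 2.38 and 5.10 TPM in treated livers, 3.76, 1.32 and 1.79 TPM in aged livers, and 0.249, 0.981 and 0.575 TPM in young livers. It had the largest log2 fold change of the members in treated against young livers (1.57 ± 0.44) at a low level, and an adjusted p of 0.0627, which passed in 4 other settings, among them without aged replicate 1 (0.0376). Sult5a1 had 17.4, 13.2 and 18.0 TPM in treated livers, 15.9, 11.6 and 19.2 TPM in aged livers, and 14.6, 28.1 and 24.2 TPM in young livers. Sult1b1, which acts on thyroid hormones, averaged 5.67 ± 1.36, 7.22 ± 1.58 and 6.12 ± 1.60 TPM in treated, aged and young livers. Sult1e1, the oestrogen sulfotransferase, was not tested and reached at most 0.443 TPM.

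Summed levels, which depend less than single genes on how reads were divided within a family, gave different orders of the groups. They are not free of it, since TPM is corrected for transcript length and some sequence is shared with genes outside the families. The soluble GST genes summed to 5668, 4572 and 5829.5 TPM in treated livers, 6238, 7428 and 7213 TPM in aged livers, and 6737, 5726 and 6770 TPM in young livers. Treated livers were at 0.77 of aged livers with no overlap (exact two-sided permutation p = 0.1), where the means differed by -1603 TPM for the family and by -809.8 TPM for its 2 Gstp genes. MGST genes averaged 4021 ± 524 TPM in treated livers, 3995 ± 628 TPM in aged livers and 4332 ± 413 TPM in young livers, with overlap throughout. UGT genes summed to 1422, 1437 and 1650.4 TPM in treated livers, 1506, 1804 and 1880.4 TPM in aged livers, and 1995, 2048 and 2296 TPM in young livers. Young livers were highest without overlap, with ratios of 0.819 for aged against young and 0.711 for treated against young livers (exact p = 0.1 each). SULT genes summed to 317, 269.6 and 294 TPM in treated livers, 239.8, 278 and 210.3 TPM in aged livers, and 168, 195 and 178 TPM in young livers, with ratios of 1.35 for aged against young and 1.63 for treated against young livers (exact p = 0.1 each). Of the 12 exact two-sided tests, none passed after Benjamini-Hochberg adjustment, where p = 0.1 becomes 0.24, and 3 against 3 libraries cannot go below 0.1.

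**Figure D5:**
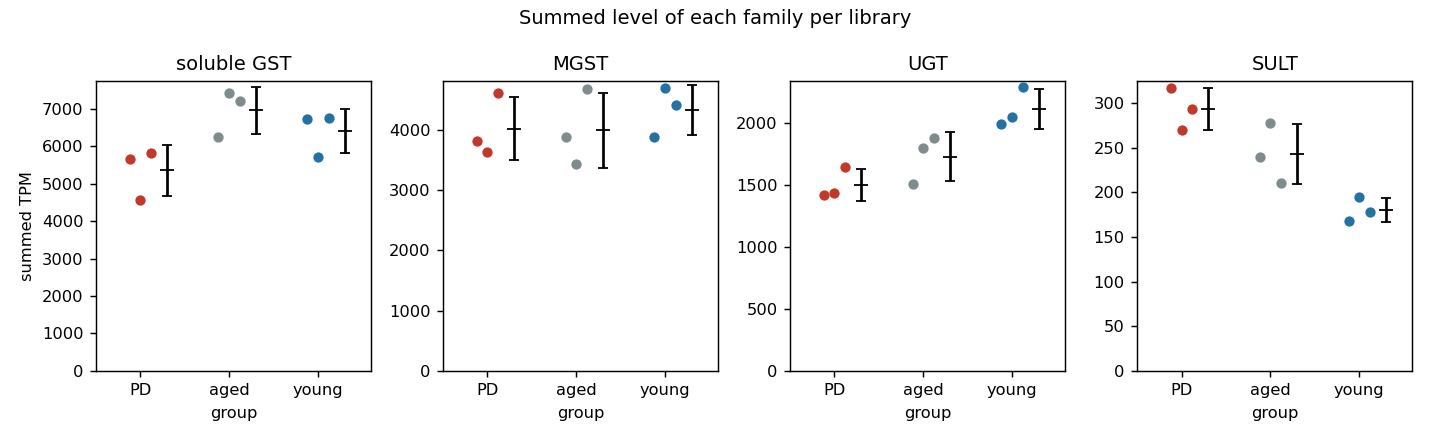
Summed TPM per library of each conjugation family, with treated (PD), aged and young livers from left to right; bars are the mean ± SD of 3 libraries and each axis starts at 0. Treated livers have the lowest mean for soluble GST and UGT genes and the highest for SULT genes.

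The supply of the 3 donors was read from lists of other genes. For these lists and those below, the shares of all genes called were 1.1% in aged against young, 1.45% in treated against aged and 6.88% in treated against young livers. Of 15 tested genes on a list for glutathione supply, 1 was called in aged against young livers, 1 in treated against aged livers and 3 in treated against young livers. The list also holds Chac1 and Txnrd1, which do not supply glutathione and are among these calls. Cth, which makes cysteine for glutathione, averaged 252 ± 31.3 TPM in treated livers, 309.8 ± 17.2 TPM in aged livers and 188 ± 32.4 TPM in young livers, and rose in aged against young livers (log2 fold change 0.74, adjusted p = 0.0278). Chac1, which degrades glutathione, averaged 3.83 ± 0.73 TPM in treated livers, 0.879 ± 0.251 TPM in aged livers and 2.30 ± 0.84 TPM in young livers, and rose in treated against aged livers (1.65, adjusted p = 0.0157). Both subunits of the enzyme that limits glutathione synthesis fell in treated against young livers: Gclc averaged 48.9 ± 2.99, 65.7 ± 17.5 and 96.3 ± 20.5 TPM in treated, aged and young livers (-0.95, adjusted p = 0.0177), and Gclm 57.2 ± 1.87, 68.7 ± 2.50 and 74.9 ± 5.10 TPM (-0.38, adjusted p = 0.0289). Txnrd1, thioredoxin reductase, rose there (0.42, adjusted p = 0.0418). Of 7 genes that supply UDP-glucuronate limma called 0 in each comparison, with 0, 2 and 3 at an unadjusted p under 0.05 in aged against young, treated against aged and treated against young livers. Of 10 genes of PAPS supply, 1 was called, Slc35b2, a PAPS transporter of the Golgi, which averaged 10.9 ± 2.69 TPM in treated livers, 14.2 ± 1.26 TPM in aged livers and 17.0 ± 1.78 TPM in young livers (-0.64 in treated against young livers, adjusted p = 0.0327).

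Among 18 tested genes on a list of other conjugating enzymes, 3 were called in aged against young livers (2 higher, 1 lower). In treated against aged livers limma called 0 of them, and 5 had an unadjusted p under 0.05. In treated against young livers 8 were called (3 higher, 5 lower). The list also holds the epoxide hydrolases Ephx1 and Ephx2, which are not conjugating enzymes, and both are among the 5 called lower. Nat8, an N-acetyltransferase that completes mercapturic acids from glutathione conjugates, averaged 30.9 ± 5.14 TPM in treated livers, 47.5 ± 5.78 TPM in aged livers and 14.8 ± 5.81 TPM in young livers, and rose in aged against young livers (1.71, adjusted p = 0.00936). Nat8 was called higher in treated against young livers too (1.09, adjusted p = 0.0231). Gnmt, glycine N-methyltransferase, averaged 1363 ± 72.0, 1550 ± 42.9 and 1107 ± 9.07 TPM in treated, aged and young livers, and rose in aged against young livers (0.49, adjusted p = 0.0195). Gnmt was also called higher in treated against young livers (0.30, adjusted p = 0.04955). Nnmt, which methylates nicotinamide, averaged 307 ± 50.6, 196 ± 69.4 and 81.1 ± 25.8 TPM, and rose in treated against young livers (1.95, adjusted p = 0.00949). The medium-chain acyl-CoA synthetases of glycine conjugation fell in treated against young livers, Acsm3 by 0.71 (adjusted p = 0.0102) and Acsm5 by 0.73 (adjusted p = 0.0115), and so did Ephx1, the microsomal epoxide hydrolase, by 0.76 (adjusted p = 0.0155). Acsm3 was also the gene called lower in aged against young livers (-0.60, adjusted p = 0.04995). Its value in treated against aged livers was -0.11 (adjusted p = 0.690). Of 12 efflux transporters limma called 0 in each comparison, with 3, 1 and 6 at an unadjusted p under 0.05 in aged against young, treated against aged and treated against young livers.

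Of 23 tested genes on a list of regulators of drug metabolism, 1 was called in aged against young livers, 1 in treated against aged livers and 5 in treated against young livers. The gene in the first 2 was Ppara, the fatty acid receptor, which averaged 20.7 ± 1.43 TPM in treated livers, 11.2 ± 2.29 TPM in aged livers and 20.1 ± 0.99 TPM in young livers. It fell in aged against young livers (-0.84, adjusted p = 0.0144) and rose in treated against aged livers (0.88, adjusted p = 0.0159). Por, the electron donor of the cytochromes P450 and not itself a regulator, rose in treated against young livers (0.64, adjusted p = 0.0120). So did the aryl hydrocarbon receptor Ahr (0.75, adjusted p = 0.0182), the NRF2 partner Mafk (0.58, adjusted p = 0.0317) and the repressor Bcl6 (1.13, adjusted p = 0.0323). The other of the 5, Foxa1, a pioneer factor of liver genes, averaged 3.02 ± 0.337 TPM in treated livers, 7.06 ± 3.61 TPM in aged livers and 8.51 ± 1.3 TPM in young livers and fell in treated against young livers (-1.35, adjusted p = 0.0414).

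Targets of the sensors outside the families were also counted. Of 13 tested NRF2 targets, limma called 0 in aged against young livers and 0 in treated against aged livers (5 and 4 at an unadjusted p under 0.05), and 2 higher and 2 lower in treated against young livers. The targets called higher there were Hmox1, heme oxygenase (1.17, adjusted p = 0.0116), and Txnrd1, a thioredoxin reductase (0.42, adjusted p = 0.0418), and those called lower were Gclc and Gclm, the subunits of glutamate-cysteine ligase. Nqo1, a commonly used NRF2 readout, averaged 3.72 ± 0.31, 5.28 ± 0.84 and 4.89 ± 0.91 TPM in treated, aged and young livers and was not called (adjusted p of at least 0.171). Of 13 tested CAR and PXR targets, 2 were called higher in aged against young livers, the cytochromes P450 Cyp2b10 (1.60, adjusted p = 0.0133) and Cyp2c37 (1.46, adjusted p = 0.00407), and 4 were called higher in treated against young livers, Cyp2c37, Cyp3a13, Por and Gadd45b. Limma called 0 of them in treated against aged livers, with 3 at an unadjusted p under 0.05. Hmox1, Txnrd1, Cyp2c37, Cyp3a13 and Gadd45b, like Bcl6 and Foxa1 above, are named after their values were seen.

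Markers of other kinds were also counted. In treated against young livers 2.59% of all genes were called higher and 4.29% lower. The 28 acute phase genes summed to 38718 to 52931 TPM in treated livers, 17535 to 49516 TPM in aged livers and 15127 to 22336 TPM in young livers, and 7 of them were called higher in treated against young livers. Of 11 listed neutrophil markers, 3 were tested and all 3 were called higher there, with list sums of 25.1 to 35.8, 10.3 to 27.0 and 3.35 to 4.24 TPM. Of 11 Kupffer cell markers, 5 were called lower there, with sums of 127 to 134, 131 to 197 and 140 to 222 TPM. Of 17 male-biased liver genes, 2 were called higher and 6 lower there, with sums of 21025 to 27491, 24952 to 33084 and 28206 to 38423 TPM. Of 17 tested hepatocyte markers 2 were called lower in treated against young livers, as were 2 of 12 stellate and 1 of 4 cholangiocyte markers. Of 14 pericentral genes 3 were called higher there, and of 16 periportal genes 1 was called higher and 2 lower. Limma called 0 of 11 endothelial, 2 lymphocyte and 4 female-biased genes there, with 3, 1 and 1 at an unadjusted p under 0.05. The part of any of these lists in the lower Ugt2b genes and the higher Sult1a1 of treated against young livers was not tested. Without aged replicate 1, the aged library with the high acute phase sum, the calls of treated against aged livers stood at -0.85 for Gstp1 (adjusted p = 0.0281) and -0.80 for Ugt2b35 (0.0372), and those of aged against young livers at 1.62 for Gstp2 (0.0488), 0.99 for Gsta2 (0.0156) and 0.93 for Gstt3 (0.0302).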

How the data were processed

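Total liver RNA was made into paired-end Illumina TruSeq libraries, per the labels' protocols, which do not state strand. The submitters' processing notes name kallisto and mm10. Version, annotation and the transcript-to-gene step: not given in the sources used here. As deposited by the authors, each library has 1 table of TPM, so no count test was possible and depth is unknown. Of 23444 rows, 4 with ambiguous date symbols were left out. The 10161 genes that reached 1 TPM in 3 or more libraries entered 1 limma 3.58.1 model (R 4.3.3, trend, robust) of log2(TPM + 0.5) over all 9 libraries. Two-sided p-values were adjusted by Benjamini-Hochberg over all genes and called under 0.05; the step was tested on simulated data. Family sums were compared by exact permutation. Sequence sharing used 31-base words of GENCODE M21 transcripts, and promoters came from RefSeq GRCm38.p6. Values per library are given for called members and the 2 most abundant of each class; other genes are named from the lists where called. Alternatives covered pseudocount, filter, scaling, variance model, weights, replicate block, each library left out and, chosen after seeing the data, summed sequence-sharing genes. The members and 22 gene lists (330 entries, 327 found by symbol, 1 by synonym) were chosen with earlier results of these data known.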

Additional observations from a re-analysis of the deposited data

How the results depend on the processing

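Depth is unknown for TPM, so the precision of low members such as Sult2a7 rests on the spread of 3 libraries alone. The number of members called in aged against young livers, 3, became 6 with array weights and ranged from 0 to 6 with 1 library left out. In treated against aged livers the 2 calls became 0 with no filter and 1 with quantile normalization, median-of-ratios scaling or only the 2 groups compared, and ranged from 0 to 3 with 1 library left out. In treated against young livers the 9 calls ranged from 3 to 10 with 1 library left out, and were 6 with no filter, 11 with no robust estimation and 12 with array weights. Of the 14 calls, 2 were kept in every fit with a library left out, Sult1a1 and Ugt2b35 in treated against young livers. The summed pair of Gstp1 and Gstp2, which is nearly all Gstp1 and does not measure Gstp2, gave -0.75 in treated against young livers. The MGST sum differed by 26.7 TPM between treated and aged livers and ranged from -271.8 to 366 with 1 library left out, with -31.7 without aged replicate 1 and -254.1 without aged replicate 2. The other 11 family sums kept their direction with each library left out. Causes were not tested.

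Replicate numbers are shared across groups but do not pair the libraries: the correlation of deviations between libraries of the same number ran from -0.22 to 0.17. With the replicate block 4 members were called in aged against young livers, 1 in treated against aged livers and 8 in treated against young livers; Ugt2b35 in treated against aged livers (adjusted p = 0.0793) and Gstp2 in treated against young livers (0.0566) did not pass there, and Ugt2b1 in aged against young livers did (0.0472).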
